A study of Mus musculus with 26 samples.

Results

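The S100 genes of the epidermal differentiation complex, a cluster of skin barrier genes on mouse chromosome 3, were followed in primary mouse keratinocytes with and without the psoriasis-associated cytokines IL17A and TNFα. The members were a preset list of 10 genes (*S100a3*, *S100a4*, *S100a6*, *S100a8*, *S100a9*, *S100a10*, *S100a11*, *S100a13*, *S100a14* and *S100a16*), taken by symbol from raw counts of 56738 gene symbols. The list does not hold every S100 gene of the cluster. Others, such as *S100a1*, *S100a5* and *S100a7a*, are treated apart. *S100a8* and *S100a9* are alarmins, proteins that are released by stressed cells and alert the immune system, and they were set against the other 8 members. The choice was by gene name, and it was made with earlier results of these data known. The study had already reported strong upregulation of *S100a8* and *S100a9* by the cytokines in both genotypes.

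S100 proteins are small calcium sensors with a pair of EF-hand motifs, which bind calcium and open a surface for partner proteins. S100A8 and S100A9 join to form calprotectin, which binds zinc and manganese, limits the growth of microbes and can signal through Toll-like receptor 4 and the receptor RAGE when it leaves the cell. S100A10 forms a complex with annexin A2 at membranes, S100A11 binds annexin A1, S100A6 binds the calcyclin-binding protein *Cacybp*, and S100A4, S100A13, S100A14 and S100A16 are mostly studied in cell migration, protein export and epithelial cells. In psoriasis, S100A8 and S100A9 are among the proteins that are abundant in affected epidermis.

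The study asked how loss of the phospholipase A2 *Pla2g4d* changes gene expression in keratinocytes under basal and inflammatory conditions. The cells came from the epidermis of C57BL/6NJ mice aged 2 days, 5 wild-type (WT) and 8 *Pla2g4d*-deficient animals (KO), which carry a CRISPR-Cas9 deletion in every cell of the body, and each mouse was cultured and sequenced on its own. Cells grew for 4 days in EpiLife medium with 0.06 mM CaCl2, a concentration that holds keratinocytes in a basal-like state. They were then left without cytokines (basal, 5 WT and 8 KO libraries) or treated with IL17A and TNFα, each at 20 ng/ml, over a period of 24 h (5 WT and 8 KO libraries). The 26 libraries from 13 mice are therefore paired within each mouse. The KO line derives from a single edited allele that was backcrossed to C57BL/6NJ and then bred as homozygotes, so that genotype and breeding line cannot be told apart.

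Total counts per library were between 42072745 and 78102858. Levels are given as CPM, counts scaled to a common library size after TMM normalization. A gene is said to rise or fall where the Benjamini-Hochberg adjusted p of edgeR's quasi-likelihood test was under 0.1, and it is counted as called where its fold change was also over 1.5, the thresholds named in the methods of the study. The targeted gene *Pla2g4d* was counted over the whole gene and includes exons outside the deletion, with 1.22 to 4.63 CPM in WT basal and 1.15 to 2.98 CPM in KO basal libraries, so that its level does not check the genotype. The keratin genes *Krt5* and *Krt14* of basal keratinocytes reached 16370.3 and 10859 CPM or more in every library. Of the markers of other cells, the summed level was 20.7 to 56.3 CPM for 10 myeloid genes, 1.69 to 7.43 CPM for 6 fibroblast genes and 291 to 604 CPM for 4 melanocyte genes. The library of KO replicate 4 under basal conditions stood apart in several members, which is given where it applies.

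The members lie in 2 groups on chromosome 3 of the GRCm39 genome. *S100a13* (chr3:90416091-90431912), *S100a14* (chr3:90434082-90436144), *S100a16* (chr3:90444172-90450462), *S100a3* (chr3:90491966-90510009), *S100a4* (chr3:90511074-90513354), *S100a6* (chr3:90520140-90535843), *S100a8* (chr3:90567118-90578128) and *S100a9* (chr3:90599931-90603071) form the first group. *S100a11* (chr3:93414382-93435293) and *S100a10* (chr3:93462213-93474510) follow after a gap of 2811.3 kb. *S100a9* is the single member on the minus strand, and *S100a7a*, an S100 gene that is no member, lies between *S100a6* and *S100a8* (chr3:90561324-90566804).

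Promoter windows of 250 bases before and 30 after the RefSeq start are shown for the alarmins, for their neighbor *S100a7a* and for *S100a11*, the member with the highest basal level per length. These are RefSeq sequences located on GRCm39 by exact match, written 5′ to 3′ on the coding strand, and capitals mark matches to the motifs searched. *S100a8* spans chr3:90576128-90576407 (plus strand), *S100a9* chr3:90602999-90603278 (minus strand), *S100a7a* chr3:90561359-90561638 (plus strand) and *S100a11* chr3:93427553-93427832 (plus strand).
S100a8: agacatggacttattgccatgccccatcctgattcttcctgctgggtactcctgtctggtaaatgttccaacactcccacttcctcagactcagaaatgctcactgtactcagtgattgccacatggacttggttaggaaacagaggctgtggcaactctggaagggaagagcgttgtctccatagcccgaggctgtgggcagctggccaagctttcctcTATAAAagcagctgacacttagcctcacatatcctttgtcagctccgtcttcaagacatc
S100a9: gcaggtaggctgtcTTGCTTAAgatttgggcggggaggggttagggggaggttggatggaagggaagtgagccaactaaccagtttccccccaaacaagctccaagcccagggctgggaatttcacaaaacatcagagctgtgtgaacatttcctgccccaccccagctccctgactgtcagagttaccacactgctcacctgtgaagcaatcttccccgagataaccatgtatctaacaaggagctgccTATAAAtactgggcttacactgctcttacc
S100a7a: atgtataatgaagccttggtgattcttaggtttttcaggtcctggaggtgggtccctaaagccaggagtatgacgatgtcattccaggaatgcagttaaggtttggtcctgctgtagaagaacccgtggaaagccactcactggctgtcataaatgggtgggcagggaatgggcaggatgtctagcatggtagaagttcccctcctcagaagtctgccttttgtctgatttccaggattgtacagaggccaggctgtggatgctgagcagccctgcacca
S100a11: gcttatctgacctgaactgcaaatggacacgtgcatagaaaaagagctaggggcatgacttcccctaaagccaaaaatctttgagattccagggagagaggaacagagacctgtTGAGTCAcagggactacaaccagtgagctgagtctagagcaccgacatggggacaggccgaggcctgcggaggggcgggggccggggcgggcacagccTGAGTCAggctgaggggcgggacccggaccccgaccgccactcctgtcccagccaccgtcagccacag

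The motifs were the TATA box TATAAA on the coding strand and, on both strands, TGANTCA for AP-1, TTGCNNAA for C/EBP and the NF-kB motif. Positions are counted from 1 at the RefSeq start. The main GENCODE transcripts of *S100a8* (90576285), *S100a9* (90603071) and *S100a11* (93427677) start at other bases, so the positions depend on the annotation. *S100a8* held TATAAA at -30 to -25. *S100a9* held TATAAA at 1 to 6 and TTGCTTAA at -236 to -229, whereas *S100a11* held TGAGTCA at -136 to -130 and again at -38 to -32. Matches were also found in windows not shown. TATAAA lay at -31 to -26 in *S100a4* and at -52 to -47 in 1 of 4 *S100a3* windows. TGAATCA lay at -192 to -186 in 1 of 2 *S100a16* windows, and *S100a6* and *S100a13* held no match. None of the 4 motifs was found in the *S100a7a* window, no NF-kB match was found in a window of any member, and no match overlapped another. In 32851 windows of the same length over the genome, 8.02% held TATAAA, 7.46% the AP-1 motif, 10.4% the C/EBP motif and 7.94% the NF-kB motif. A window was found for 8 of the 10 members, the exceptions being *S100a10* and *S100a14*. A match to these letters is a description and was not tested for binding.

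Under basal conditions, the S100 transcripts of WT keratinocytes were led by the annexin partners and epithelial members, not by the alarmins. Per kb of exon, *S100a11* was highest with 390.1 ± 32.3 CPM per kb (SD, n = 5), followed by *S100a14* with 285 ± 14.9 CPM per kb. *S100a6* (142 ± 23.6) and *S100a10* (126 ± 9.65 CPM per kb) came next, and their ranges overlapped. *S100a16* followed with 49.4 ± 2.63 CPM per kb. The top place depends on the length used, since per kb of median transcript length *S100a14* had 479 and *S100a11* 472 CPM per kb in the same libraries.

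The alarmins ranked below these 5 genes. *S100a8* had 30.7 ± 5.43 and *S100a9* 27 ± 2.22 CPM per kb, with overlapping ranges. *S100a13*, which takes part in protein export without a signal peptide, was low with 0.822 ± 0.252 CPM per kb. *S100a3*, a protein of the hair cuticle, had 0.156 ± 0.0603 CPM per kb. The order was the same in KO cells, where *S100a11* had 445 ± 42.5 and *S100a8* 31.1 ± 7.25 CPM per kb (SD, n = 8).

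*S100a4*, a gene linked to cell migration and to fibroblasts, was hardly counted. It had 20 counts in total, with 0 to 5 counts per library and at least 1 count in 7 of 26 libraries, and it was the only member that did not pass the filter on low values. All 5 WT basal libraries were at 0, which allows a level of up to 0.0472 to 0.0709 CPM per library if each count is a separate read (3 counts, for counting error only), and more where both mates of a pair were counted. In the GENCODE annotation, 302 of the 503 bases of its main transcript are shared with *Gm42674* on the same strand. *Gm42674* was at 0 in all 26 libraries, and the level of *S100a4* is uncertain, since how reads on both genes were counted is not given in the sources used here. *S100a3* shares 144 of 712 bases in the same way. *S100a13* shares 2707 exon bases with Chtop and *S100a1* on the other strand, and although the libraries were strand-specific, the strand setting of the counting is not given either.

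With cytokines the order changed at the top. *S100a9* (1661 ± 364) and *S100a8* (1523 ± 319.7 CPM per kb, SD, n = 5) were the highest members in WT cells, with overlapping ranges, ahead of *S100a11* with 563 ± 52.8 and *S100a14* with 379 ± 31.4 CPM per kb. In KO cells *S100a9* reached 1190.5 ± 309 and *S100a8* 1151 ± 331 CPM per kb (SD, n = 8), followed by *S100a11* with 552 ± 61.5 CPM per kb. Per kb of median transcript length, the gene after the alarmins in treated KO cells was *S100a6* with 745 CPM per kb, ahead of *S100a11* with 668. Per kb, *S100a6*, *S100a10*, *S100a16*, *S100a13*, *S100a3* and *S100a4* kept their order among themselves in both genotypes.

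**Figure D1:**
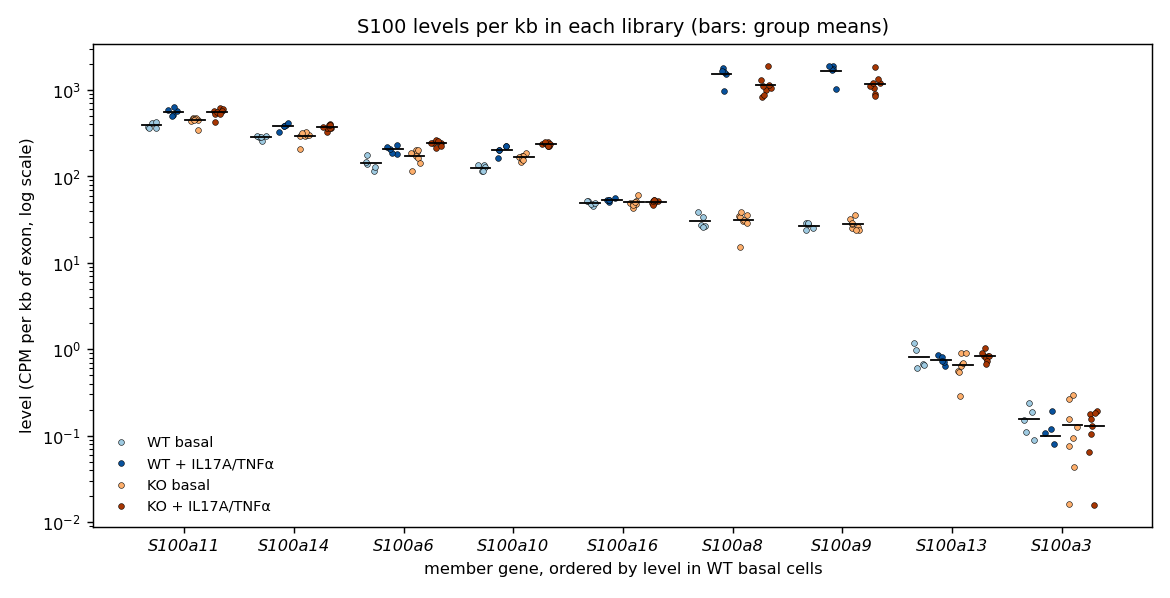
Level of 9 members in CPM per kb of exon (log axis) in each of the 26 libraries, colored by group, with black bars for the group means. *S100a8* and *S100a9* moved from about 30 CPM per kb to above all other members with cytokines, while the other genes kept their order. *S100a4*, and 1 library of *S100a3* at 0, are not drawn.

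The share of all counts shows the same shift. The alarmins took 0.00653% ± 0.000853 of all counts in WT basal libraries and 0.359% ± 0.0716 with cytokines (SD, n = 5). In KO cells they took 0.00661% ± 0.00104 and 0.265% ± 0.0667 (SD, n = 8). The other 8 members together went from 0.309% ± 0.021 to 0.438% ± 0.0275 in WT and from 0.357% ± 0.0304 to 0.469% ± 0.0228 in KO cells. Of the counts of all members, the alarmins thus made up 2.07% ± 0.262 in WT basal cells and 44.7% ± 5.67 with cytokines. The corresponding values in KO cells were 1.82% ± 0.248 and 35.7% ± 5.49.

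In response to IL17A and TNFα, 6 of the 9 members tested rose in WT cells, *S100a8*, *S100a9*, *S100a10*, *S100a6*, *S100a11* and *S100a14*, and none fell. The background was 18.8% of 16893 genes that rose and 18.0% that fell by adjusted p. Of these 6, *S100a8*, *S100a9* and *S100a10* were called, where the background was 8.65% of genes called higher and 5.26% called lower. The median log2 fold change of the 9 members was 0.53, beside 0.01 over all genes tested. All 5 WT libraries with cytokines lay above all 5 basal libraries for the same 6 members, a pattern that 10.5% of genes showed, against 9.99% in the opposite direction. Because these are bulk samples, more cells that express a gene and more RNA per cell cannot be told apart.

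*S100a8* encodes the smaller subunit of calprotectin. In WT basal libraries (replicates 1 to 5) it had 38, 27.2, 26.6, 25.7 and 33.6 CPM, and with cytokines 971, 1797, 1507, 1578 and 1649 CPM. In KO cells it had between 14.9 and 38.6 CPM (median 32.1) under basal conditions and between 825 and 1856 CPM (median 1065) with cytokines. The groups with and without cytokines were far apart in both genotypes, the lowest treated library being above the highest basal library by a wide margin. The fold change was 49.7 in WT (log2 fold change 5.63, 95% interval 5.14 to 6.13, adjusted p = 9.93e-17, edgeR) and 37 in KO cells (log2 5.21, 4.82 to 5.6, adjusted p = 1.12e-18).

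*S100a9*, the calprotectin partner of *S100a8*, was the most strongly changed member. In WT cells it had 37, 35.8, 30.6, 32.3 and 36.6 CPM under basal conditions and 1306, 2430, 2255, 2208 and 2399 CPM with cytokines. In KO cells the values were between 30.9 and 45.8 CPM (median 34.3) and between 1103 and 2357 CPM (median 1468). WT replicate 1 was the lowest of the treated WT libraries for both alarmins, and KO replicate 8 was the highest treated KO library for both. The log2 fold change was 5.94 in WT (61.5-fold, 95% interval 5.54 to 6.35, adjusted p = 3.3e-19) and 5.40 in KO cells (42.3-fold, 5.09 to 5.71, adjusted p = 5.35e-21, edgeR).

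Both alarmin transcripts rose together, with a shift towards *S100a9* in treated WT cells. The ratio of *S100a9* to *S100a8* counts was 1.16 ± 0.135 in WT basal and 1.41 ± 0.0654 in WT treated libraries (SD, n = 5). In KO cells it was 1.24 ± 0.357 and 1.35 ± 0.0506 (SD, n = 8). The ranges did not overlap in WT cells (0.972 to 1.31 basal, 1.35 to 1.5 treated). They overlapped in KO cells (0.966 to 2.08 basal, 1.27 to 1.42 treated). The wide spread in KO basal libraries came with KO replicate 4, where *S100a8* was at 14.9 CPM and *S100a9* at 31 CPM, a ratio of 2.08.

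The annexin partners rose by far less. *S100a10*, which pairs with annexin A2, had 936, 892, 804, 942 and 808 CPM in WT basal libraries and 1393, 1569.9, 1127, 1569 and 1394 CPM with cytokines. Every treated library was above every basal library, although the step was small beside that of the alarmins. The fold change was 1.61 in WT (log2 0.69, 95% interval 0.54 to 0.83, adjusted p = 8.49e-09, edgeR) and 1.41 in KO cells (log2 0.50, 0.38 to 0.62, adjusted p = 3.38e-08). *S100a10* was thus called in WT cells alone, and a test of the difference between genotypes did not pass (log2 difference -0.19, adjusted p = 0.545).

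*S100a11*, the partner of annexin A1, went from 1043 ± 86.2 to 1505 ± 141 CPM in WT cells (SD, n = 5, log2 fold change 0.53, standard error 0.087, adjusted p = 1.7e-05, edgeR). In KO cells it went from 1190.5 ± 114 to 1475 ± 164 CPM (SD, n = 8, log2 0.31, standard error 0.0687, adjusted p = 0.000754). The treated and basal groups did not overlap in WT cells and overlapped in KO cells, where 7 of 8 treated libraries were above all basal ones.

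*S100a6*, which binds *Cacybp* and annexins, rose 1.45-fold in WT (334 ± 55.6 to 485 ± 47.9 CPM, adjusted p = 0.000575, edgeR) and 1.41-fold in KO cells (405 ± 71.2 to 573 ± 42.2 CPM, adjusted p = 7.53e-05). *S100a14*, an epithelial S100 gene, rose 1.33-fold in WT (553 ± 28.9 to 736 ± 61 CPM, adjusted p = 0.000257) and 1.26-fold in KO cells (575 ± 73.7 to 727 ± 46.8 CPM, adjusted p = 0.000157). For both genes the basal and treated groups did not overlap in either genotype.

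*S100a16*, *S100a13* and *S100a3* did not pass the test in WT or KO cells in the fit without pairing. *S100a16* was narrowly bounded, with 248 ± 13.2 CPM in WT basal and 268 ± 10.9 CPM in treated libraries, a log2 difference of 0.11 with a 95% interval of -0.02 to 0.24 (adjusted p = 0.186, edgeR). For *S100a13* the intervals were -0.58 to 0.31 in WT and -0.01 to 0.7 in KO cells (log2 0.35, adjusted p = 0.136). With the mouse as a replicate block *S100a13* passed in KO cells, with a log2 fold change of 0.40 (adjusted p = 0.0622), and it also passed with limma (0.0835). It passed in 3 of 22 alternatives, over which the value was 0.22 to 0.44 and the adjusted p 0.0622 to 0.337. *S100a3* had 0.0 to 0.785 CPM over all libraries, and its intervals were wide, -2.07 to 0.78 in WT and -1.18 to 1.04 in KO cells.

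In KO cells 6 of 9 members rose by adjusted p and none fell, beside 17.7% of all genes that rose and 18.1% that fell. *S100a8* and *S100a9* were called, beside 6.33% of genes called higher and 4.55% called lower. For 5 members all 8 treated libraries were above all 8 basal ones, beside 6.52% of genes with this pattern and 5.24% with the opposite. The median log2 fold change of the 9 members was 0.35, and that of all genes 0.

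**Figure D2:**
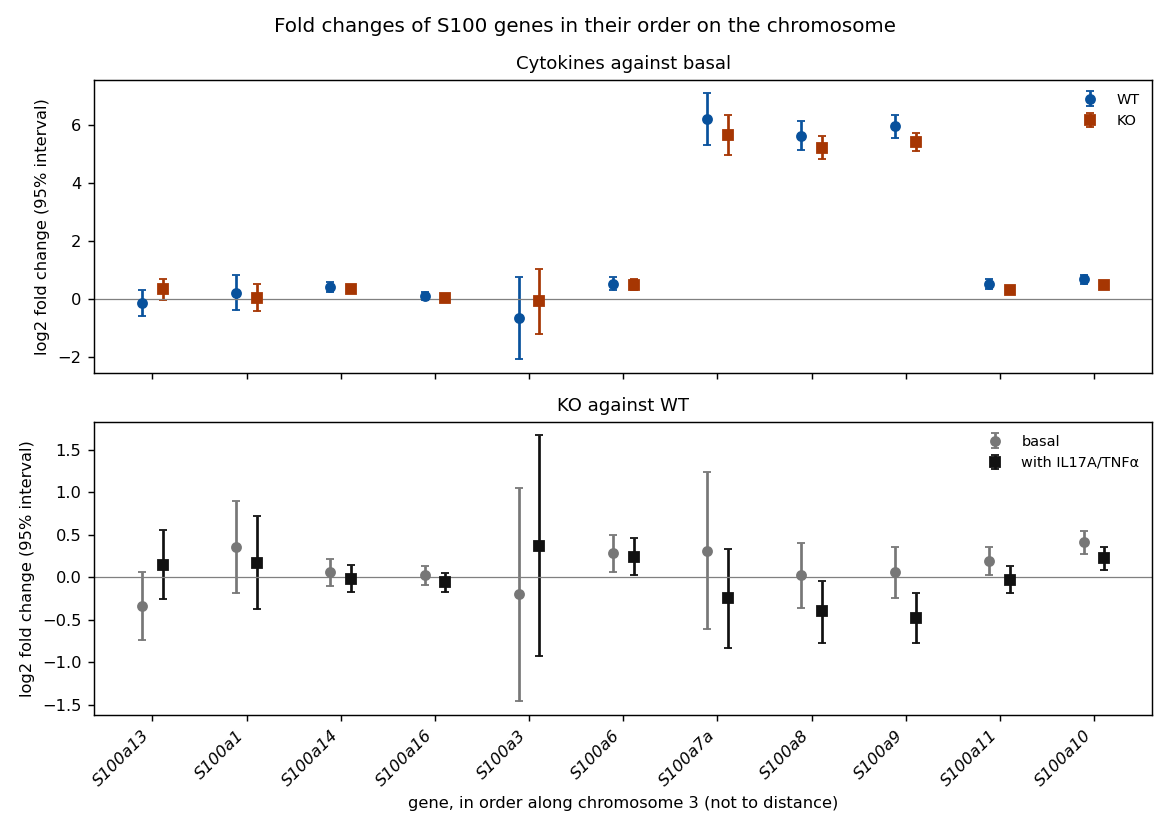
Log2 fold change with its 95% interval for 11 S100 genes in their order along chromosome 3 (spacing not to distance), for cytokines against basal (top) and KO against WT (bottom). With cytokines *S100a7a*, *S100a8* and *S100a9* stand at 5.21 to 6.2 and no other point reaches 1. In the genotype panel the intervals of *S100a10* and *S100a6* lie above 0 in both conditions, and that of *S100a11* in basal cells. Those of *S100a9* and *S100a8* lie below 0 with cytokines. By adjusted p, *S100a10* in both conditions and *S100a9* with cytokines passed, and *S100a6*, *S100a8* and *S100a11* did not.

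The change was also read within each mouse, as log2 CPM with cytokines minus log2 CPM without. For *S100a8* it was 4.67 to 6.04 in the 5 WT mice and 4.77 to 5.85 in the 8 KO mice. For *S100a9* it was 5.14 to 6.2 in WT mice and 5.09 to 5.98 in KO mice. In all 13 mice the alarmins rose far above the other members. The mean change of both alarmins was 4.91 to 6.06 per mouse, whereas the highest change among *S100a6*, *S100a10*, *S100a11*, *S100a13*, *S100a14* and *S100a16* was 0.37 to 1.64.

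*S100a10* rose in 13 of 13 mice, by 0.49 to 0.82 in WT and 0.37 to 0.59 in KO mice. *S100a11* changed by 0.32 to 0.72 in WT and 0.15 to 0.41 in KO mice. *S100a6* and *S100a14* were also higher with cytokines in every mouse, and the largest steps of both, 1.19 and 0.98, were in KO replicate 4, whose basal values were the lowest KO basal values for these genes. *S100a13* went down in 3 of 5 WT mice and up in 7 of 8 KO mice. Its largest rise, 1.64, was in KO replicate 8, whose basal level of 1.36 CPM was the lowest in KO cells. The other KO mice changed by -0.15 to 0.58.

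**Figure D3:**
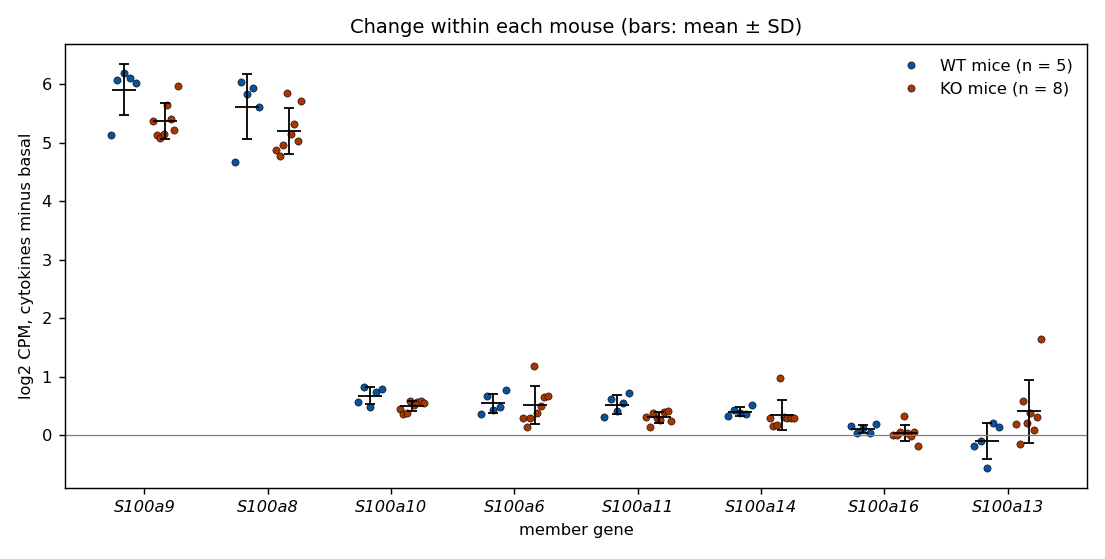
Change of log2 CPM from the basal to the treated library of the same mouse for 8 members, with 1 point per mouse, 5 WT and 8 KO mice, and bars for mean ± SD. *S100a8* and *S100a9* lie between 4.67 and 6.2 in all mice, and the other 6 genes lie at 1.64 or below.

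S100A8 and S100A9 are also major proteins of neutrophils, so markers of myeloid cells were examined beside the rise. The neutrophil receptor *Csf3r* was at 0 in all 26 libraries. *Ly6g*, *Mpo* and *Elane* had counts in 1 library each, at 0.0473, 0.13 and 0.0433 CPM, and the pan-leukocyte gene *Ptprc* reached 0.116 CPM at most. The summed level of the 10 myeloid genes had a median of 27.7 CPM in WT basal and 44.9 CPM in WT treated libraries, and of 30.5 and 32.8 CPM in KO cells. Of these genes *Cd68*, which encodes a lysosomal protein, rose from 20.1 ± 2.68 to 33.6 ± 4.77 CPM in WT cells (adjusted p = 0.000538, edgeR). *Cd68* also rose in KO cells, from 19.1 ± 2.41 to 26.6 ± 7.6 CPM (adjusted p = 0.00414, edgeR). *Itgam*, *Lyz2* and *Csf1r* did not pass in either genotype. The part of the myeloid genes in the rise of the alarmins was not tested.

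Markers of suprabasal keratinocytes moved in the opposite direction. The summed level of *Krt1*, *Krt10*, *Ivl*, *Lor* and *Sbsn* had a range of 2555 to 4774 CPM in WT basal and 514 to 923 CPM in WT treated libraries. In KO cells the ranges were 2098 to 4328 and 473 to 816 CPM. None of these genes was at 0, and their part in the changes of the S100 genes was not tested.

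The genotypes differed little in the S100 genes of basal cells, with *S100a10* as the exception. Of 9 members, *S100a10* alone was higher in KO cells by adjusted p, beside 7.57% of all genes, and none was lower, beside 6.06%. No member was called, beside 1.61% of genes called higher and 1.07% called lower, while 3 members had an unadjusted p under 0.05. In WT libraries *S100a10* had 936, 892, 804, 942 and 808 CPM, and in KO libraries between 1033 and 1298 CPM (median 1188). All 8 KO libraries were above all 5 WT libraries, as for 1.91% of genes, with 1.12% the other way. The log2 difference was 0.41 (1.33-fold, 95% interval 0.27 to 0.54, adjusted p = 9.78e-05, edgeR), and it was 0.38 to 0.44 under 21 alternative settings. Settings that change only the thresholds are counted among these 21 and reuse the main fit, so they cannot move the value. Some markers of other cells differed in the same comparison. *Krt1* had 1522 CPM in WT and 903 CPM in KO basal libraries (adjusted p = 0.00776, edgeR). *Pecam1* had 0.816 and 1.59 CPM (1.93-fold, adjusted p = 0.0195) and *H2-Ab1* 0.356 and 0.104 CPM (0.297-fold, adjusted p = 0.06, edgeR). All were called, *Pecam1* and *H2-Ab1* at low levels. Other genes of these lists did not follow. *Krt10*, *Ivl*, *Lor* and *Sbsn* were lower in KO means but did not pass. *Kdr* did not pass (adjusted p = 0.601, edgeR), *Cdh5* was at 0, and *Cd74* had 0.0685 CPM in WT and 0.0916 CPM in KO libraries. The summed level of the 5 suprabasal genes was 2555 to 4774 CPM in WT and 2098 to 4328 CPM in KO libraries, that of 3 endothelial genes 1.04 to 2.87 and 1.79 to 4.45 CPM, and that of 3 Langerhans cell genes 0.33 to 0.521 and 0.0574 to 0.348 CPM, with *Cd207* at 0. The part of these markers in the *S100a10* difference was not tested.

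*S100a6* and *S100a11* had higher means in KO basal cells, but neither passed. *S100a6* had a log2 difference of 0.28 (0.06 to 0.49, adjusted p = 0.101) and *S100a11* of 0.19 (0.03 to 0.35, adjusted p = 0.134, edgeR). Both are affected by KO replicate 4, the lowest KO library for *S100a11* with 925 CPM and for *S100a6* with 275 CPM. Both passed under some alternatives, *S100a6* in 5 of 21 and *S100a11* in 3 of 21. Without the mouse of replicate 4 the differences were 0.34 (adjusted p = 0.0134) for *S100a6* and 0.23 (adjusted p = 0.00601) for *S100a11*.

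The alarmins did not differ detectably between genotypes in basal cells. The log2 difference was 0.02 for *S100a8* (95% interval -0.36 to 0.4) and 0.06 for *S100a9* (-0.24 to 0.36). These intervals bound a genotype effect in the absence of cytokines to less than 1.5-fold in either direction.

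With cytokines the genotypes differed in both directions. *S100a9* was lower in KO cells and *S100a10* higher by adjusted p, beside 1.62% of genes lower and 1.22% higher. Neither change was over 1.5-fold, so no member was called, where 0.148% of genes were called higher and 0.556% lower. For no member did the genotypes lie apart without overlap, as they did for 0.651% of genes that were higher and 0.432% that were lower. At an unadjusted p under 0.05, 4 members differed, *S100a6*, *S100a8*, *S100a9* and *S100a10*.

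*S100a9* had 1306, 2430, 2255, 2208 and 2399 CPM in treated WT libraries and 1357, 1148, 1408, 1103, 1543, 1529, 1708 and 2357 CPM in treated KO libraries. The 4 WT libraries other than replicate 1 were above 7 of the 8 KO libraries, and WT replicate 1 and KO replicate 8 each lay in the range of the other genotype. The log2 difference was -0.48 (0.717-fold, 95% interval -0.77 to -0.19, adjusted p = 0.0867, edgeR). It was -0.61 without WT replicate 1 (adjusted p = 0.00445) and -0.59 without KO replicate 8 (adjusted p = 0.00797), and it was then over 1.5-fold and called. Over 21 alternatives the adjusted p of *S100a9* was between 0.00445 and 0.241, and it was over 0.1 in 12 of them. The 21 include the settings that change only the thresholds, which keep the adjusted p of the main fit.

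*S100a8* followed the same pattern at a smaller size. It had 971, 1797, 1507, 1578 and 1649 CPM in treated WT libraries and 992, 825, 1042, 860.3, 1088, 1129, 1275 and 1856 CPM in treated KO libraries. The same pair of libraries, WT replicate 1 and KO replicate 8, crossed over to the other genotype. The log2 difference was -0.40 (95% interval -0.77 to -0.04, adjusted p = 0.267), which did not pass. It passed without WT replicate 1 (log2 -0.52, adjusted p = 0.0558) and without KO replicate 8 (log2 -0.54, adjusted p = 0.053), and under no other of the 21 alternatives.

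*S100a10* had 1550.3 to 1735 CPM (median 1657) in treated KO libraries and 1127 to 1569.9 CPM (median 1394) in WT libraries. The log2 difference was 0.22 (95% interval 0.09 to 0.35, adjusted p = 0.0842, edgeR), with 6 of 8 KO libraries above all WT libraries. Over 21 alternatives its adjusted p was between 0.031 and 0.264, and it was over 0.1 in 8 of them. *S100a11*, *S100a14* and *S100a16* were bounded within 0.19 of 0 on the log2 scale.

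**Figure D4:**
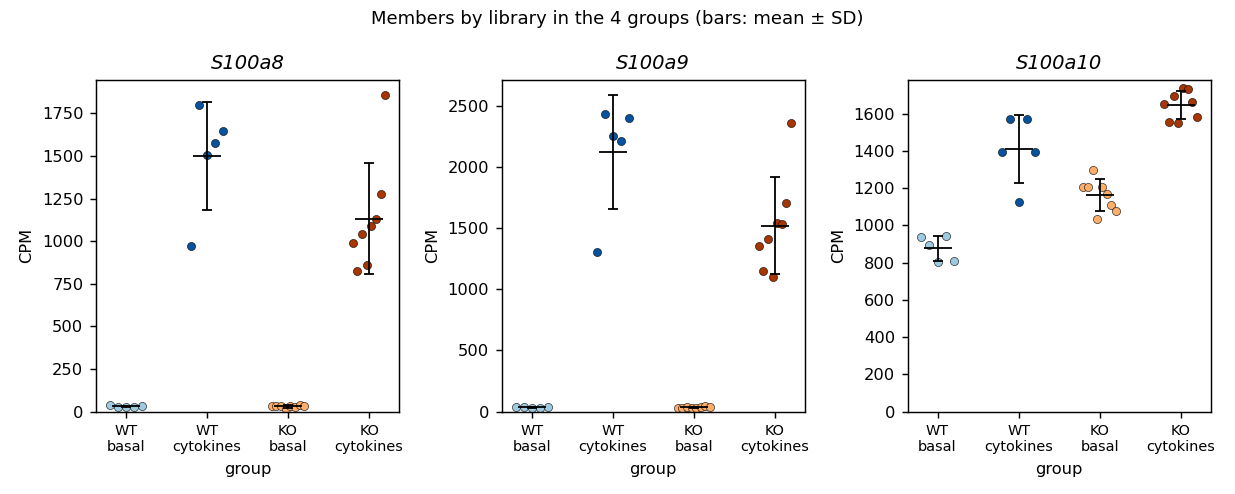
CPM of *S100a8*, *S100a9* and *S100a10* (linear axes from 0) in each library of the 4 groups, with bars for mean ± SD. *S100a10* is higher in KO than in WT basal libraries without overlap, whereas for both alarmins 1 low treated WT library and 1 high treated KO library reach into the other genotype.

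Whether the response to cytokines itself differed between genotypes was tested as an interaction. In the fit without pairing no member passed with edgeR, beside 0.201% of genes higher and 0.781% lower by adjusted p. Of all genes 0.0355% were called higher and 0.184% called lower. In this fit 2 members, *S100a9* and *S100a10*, had an unadjusted p under 0.05. For *S100a9* the log2 response was lower in KO cells by a difference of -0.54 (95% interval -0.96 to -0.12, adjusted p = 0.347). Without WT replicate 1 it was -0.69 (adjusted p = 0.0797) and without KO replicate 8 it was -0.64 (adjusted p = 0.0968), and *S100a9* was then called. For *S100a8* it was -0.42 (-0.95 to 0.1, adjusted p = 0.654). With the mouse as a replicate block, *S100a9* (log2 -0.54, adjusted p = 0.0969) and *S100a11* (log2 -0.22, adjusted p = 0.0837, against 0.569 without the block) passed by adjusted p, and neither was called.

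Beside these differences, markers of suprabasal cells differed between the genotypes too. *Krt1* had 75 ± 19.1 CPM in treated WT and 28 ± 8.6 CPM in treated KO libraries (adjusted p = 0.000146, edgeR), and the summed level of the 5 suprabasal genes had a median of 885 CPM in treated WT and 551 CPM in treated KO libraries. The summed level of the 10 myeloid genes had a median of 44.9 and 32.8 CPM. Melanocyte genes were also lower in treated KO cells, 3 of 4 by adjusted p, beside 1.62% of all genes. The levels were 123 and 82.8 CPM for *Pmel* (adjusted p = 0.0168), 108 and 77.6 CPM for *Dct* (0.0168) and 20.3 and 15.6 CPM for *Mlana* (0.0923, edgeR). The summed level of the 4 melanocyte genes was 315 to 458 CPM in treated WT and 291 to 386 CPM in treated KO libraries, and none was at 0. The part of these markers in the lower *S100a9* level was not tested.

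Other S100 genes outside the members were examined as a list of 7, of which 3 could be tested. *S100a7a*, the mouse relative of the human psoriasin genes and the closest neighbor of *S100a8*, had 0.22 to 0.869 CPM in WT basal libraries and 12.8, 44.2, 23.7, 36 and 36.8 CPM with cytokines. In KO cells it had 0.0574 to 0.953 CPM and 18.4 to 41 CPM. It rose by a log2 fold change of 6.20 in WT (adjusted p = 2.65e-12) and 5.64 in KO cells (adjusted p = 4.39e-14, edgeR), a fold change close to that of the alarmins. As for the alarmins, WT replicate 1 was the lowest treated WT library and KO replicate 8 the highest treated KO library. *S100a1* and *S100b* did not pass, and *S100a5*, *S100a7l2*, *S100g* and *S100z* were too low to test.

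Receptors of extracellular S100 proteins changed little. Of 8 genes listed, 7 were tested and *Cd36* was too low. In WT cells 2 rose and none was called, *Tlr4* (2.37 to 3.29 CPM, log2 0.47, adjusted p = 0.0554) and *Mcam* (55.2 to 73 CPM, log2 0.40, adjusted p = 9.93e-06, edgeR). The background was 18.8% of all genes that rose and 8.65% called higher. In KO cells 3 of the 7 rose, beside 17.7% of all genes. Of these *Cd14*, a co-receptor of *Tlr4*, was called with a log2 fold change of 0.76 (adjusted p = 0.00566, edgeR), beside 6.33% of genes called higher. *Bsg*, a receptor of S100A9, had 472 CPM in WT basal and 503 CPM in treated libraries and did not pass, and *Ager*, which encodes RAGE, had 0.303 to 0.621 CPM in the group means.

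Among the proteins that bind S100 proteins inside the cell, several annexins rose. Of 7 intracellular partners, 4 rose and 2 fell in WT cells, beside 18.8% of all genes that rose and 18.0% that fell. Of those that rose 3 were called, beside 8.65% of genes called higher. *Anxa1*, the partner of *S100a11*, went from 1387 to 3413 CPM in WT cells (log2 fold change 1.30, adjusted p = 3.58e-09). *Anxa11* (log2 0.79) and *Anxa5* (log2 0.59) were called too. *Anxa2*, the partner of *S100a10*, did not rise with it, with 2122 and 1977 CPM in WT (log2 -0.10, adjusted p = 0.113) and a fall in KO cells (log2 -0.17, adjusted p = 0.00104, edgeR).

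In basal KO against WT cells, 5 of these 7 partners were higher by adjusted p and none was called, beside 7.57% of all genes that were higher. These were *Anxa6* (log2 0.52), *Anxa1* (0.36), *Anxa5* (0.25), *Anxa11* (0.21) and *Anxa2* (0.13). *S100a10* was the member that was higher in the same comparison.

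The fused-type S100 genes, which encode large barrier proteins with an S100 domain at one end, lie in the same gene complex and mostly fell. Of 7 genes, 5 fell and 1 rose in WT cells, all called, with a median log2 fold change of -1.17. Over all genes 5.26% were called lower and 8.65% higher, and the median was 0.01. *Flg2* (20 to 2.36 CPM, log2 -3.09) and filaggrin (*Flg*, 194 to 31.8 CPM, log2 -2.61) fell most, and *Crnn* fell by 1.26 on the log2 scale. *Rptn* rose (221 to 422 CPM, log2 0.93, adjusted p = 0.00301, edgeR). In KO cells 5 fell and 1 rose as well, all called, beside 4.55% of genes called lower and 6.33% called higher. With cytokines *Flg2*, *Hrnr* and *Tchhl1* were lower in KO than in WT cells (log2 -0.93, -0.87 and -0.87). These were called, beside 0.556% of all genes called lower.

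Among 13 genes of IL17A and TNF signaling, 8 rose and 2 fell in WT cells, beside 18.8% and 18.0% of all genes. Of these *Cebpd* (17.5 to 44.9 CPM, log2 1.36) and *Nfkbiz* (119 to 257 CPM, log2 1.11) were called, beside 8.65% of genes called higher. *Nfkbiz* encodes IκBζ, a coactivator of IL17A target genes, and *Cebpd* a C/EBP factor. In the interaction 4 of the 13 responses were smaller in KO cells by adjusted p, those of *Relb* (-0.45, adjusted p = 0.0101), *Nfkb2* (-0.25, 0.0717), *Rela* (-0.22, 0.0429) and *Traf3ip2* (-0.22, 0.0661, edgeR). None was called, and 0.781% of all genes were lower in this test. The same 4 genes were higher in KO basal cells by adjusted p, beside 7.57% of all genes. The log2 differences were 0.36 for *Relb*, 0.35 for *Nfkb2*, 0.14 for *Rela* and 0.12 for *Traf3ip2*. With cytokines none of these 4 differed between genotypes by adjusted p.

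Other alarmins and antimicrobial genes largely rose with *S100a8* and *S100a9*. Of 10 genes, 9 were tested, 7 rose and 1 fell in both genotypes, all called, and the median log2 fold change in WT cells was 2.54. The background was 8.65% of genes called higher and 5.26% lower in WT, and 6.33% and 4.55% in KO cells. The largest in WT were *Defb3* (0.143 to 28.5 CPM, log2 7.60), *Lcn2* (3.51 to 218 CPM, log2 5.97), *Slpi* (11.7 to 169.6 CPM, log2 3.86) and *Defb4* (0.473 to 3.75 CPM, log2 3.01). *Il33* fell (log2 -1.46, adjusted p = 7.76e-05, edgeR) and the nuclear alarmin *Hmgb1* had a log2 difference of 0.01. *Camp* was too low to test.

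Genes with a course like that of the alarmins were found by Pearson correlation with the mean log2 CPM of *S100a8* and *S100a9* over the 26 libraries, which share the split by treatment. The closest were *Slpi* (r = 0.995), *Sprr2e* (0.994), *Lcn2* (0.994), *Nfkbia* (0.993) and *Zc3h12a* (0.992). After the group means were removed, the closest were *Stfa1* (r = 0.904), *Ier3* (0.857), *Csta1* (0.853), *Bsg* (0.837) and *Gm2a* (0.828). *Stfa1* and *Csta1* encode cystatin-type protease inhibitors, and *Bsg* the receptor basigin. *S100a7a* had r = 0.977 (rank 45) over all libraries and 0.606 (rank 359) after removal of the group means. *Lcn2* also had 0.606 after this removal (rank 356).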

How the data were processed

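Primary keratinocytes of 5 WT and 8 KO mice gave 26 libraries. The authors aligned strand-specific paired reads to mm39 with STAR 2.7.10b, counted them per gene with featureCounts 2.0.6 and GENCODE, and deposited raw counts without normalization. A second deposited table holds log2 values of normalized counts and served for an alternative alone. Of the counts between 1 and 10, 83.8% were even, as when both mates of a pair are counted, so that a limit of 3 counts for a count of 0 is then too low. Total counts (42072745 to 78102858, median 53126822) leave the spread between mice as the main limit on precision.

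The 16893 genes with a mean normalized count over 10 entered a quasi-likelihood fit of the 4 groups in edgeR 4.0.16 (R 4.3.3, TMM factors), with Benjamini-Hochberg adjustment over all of them. This fit held no term for the mouse, and among the tests the pairing entered only in the replicate block. A call required an adjusted p under 0.1 together with a change of more than 1.5-fold. DESeq2, the tool of the study, was an alternative (version 1.42.0), as was limma 3.58.1 on the log2 values. In simulated counts of 16893 genes, 81.5% of 200 genes changed by 1.5 on the log2 scale were recovered for the cytokine effect in WT, with 4 false calls. Smaller changes, such as all genotype differences of members, were not simulated, so this rate does not apply to them. Log2 CPM used a prior count of 1, and lengths are merged exons of a later GENCODE release on GRCm39. Promoter windows are from RefSeq.

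The members and gene lists were chosen with earlier results of these data known. All members were named, and of each list at most the 4 genes with the largest change among those that passed in the cytokine effect in WT, with others where a sentence needs them. The genes most like the alarmins were the 5 with the highest Pearson r. The basal and the treated library of 1 replicate number are from the same mouse, so the numbers pair the libraries, and their deviations from the group means correlated at r = 0.00051 to 0.25 (median 0.11). Libraries of a group differed by more than sampling noise (chi-square per degree of freedom 7.44 or more). Alternatives were DESeq2 size factors, DESeq2, no filter, filterByExpr, limma, a fit of only the compared groups, a replicate block for the mouse, other thresholds, another length, a prior count of 5, and each mouse left out. Other thresholds reuse the main fit, so its values and adjusted p stay the same. Sex, litter and sequencing batch are not given in the sources used here.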

Additional observations from a re-analysis of the deposited data

Results flagged for a closer look

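Values of members in 6 groups lay far from the other libraries of their group, by the gap to the nearest library relative to the range of the group. Chance gives about 5% of the 39 groups of members examined.

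In basal KO replicate 4, 3 members were low. *S100a8* had 14.9 CPM (other KO basal libraries 28.2 to 38.6), *S100a11* had 925 CPM (others 1162 to 1281) and *S100a14* had 401 CPM (others 573 to 628). The treated library of the same mouse was low in *S100a11* with 1131 CPM (others 1421 to 1667).

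The others were in treated libraries. *S100a9* had 1306 CPM in WT replicate 1 (others 2208 to 2430), and *S100a8* had 1856 CPM in KO replicate 8 (others 825 to 1275). Each of these mice reduced the difference of *S100a9* between genotypes with cytokines, which was -0.61 and -0.59 on the log2 scale without them. The cause of these far values was not tested.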

How the results depend on the processing

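Of 963 values of members under alternatives, 926 kept their direction and their call (adjusted p under 0.1 and more than 1.5-fold), and 22 changed sign, each of a member that had not passed (adjusted p 0.674 or above). Part of this agreement was fixed in advance. Settings that change only the thresholds reuse the main fit and cannot change a sign. Leaving out a mouse of the other genotype keeps all libraries compared in a cytokine effect. By adjusted p alone, 39 of the 960 values that had one lay on the other side of 0.1, in 9 of 45 member comparisons, of which *S100a9* (12 of 21 alternatives over 0.1) and *S100a10* (8 of 21) between genotypes with cytokines crossed most often. The mouse as a replicate block left 3 members called in WT, 2 in KO and 0 in the interaction, as without the block, but by adjusted p it let *S100a13* pass in KO cells (0.0622) and *S100a9* (0.0969) and *S100a11* (0.0837) pass in the interaction. With no minimum fold change, 6 members passed in WT, 6 in KO, 1 in the basal genotype comparison and 2 with cytokines. With mice left out, 0 to 1 members were called for the genotype with cytokines and 0 to 1 in the interaction, the 1 being *S100a9* without WT replicate 1 or KO replicate 8. By median transcript length, in KO basal cells *S100a8* ranked 7 and *S100a9* ranked 6, the reverse of their order by merged exon length, and *S100a6* (527 CPM per kb) came before *S100a14* (498).

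The values that changed sign were between -0.04 and 0.31. With limma *S100a8* in the basal genotype comparison was -0.0107 and *S100a3* in the cytokine effect in KO was 0.0893, which was 0.1424 with the replicate block. With single mice left out, the cytokine effect in KO was -0.2827 to 0.3104 for *S100a3* and -0.0064 to 0.0645 for *S100a16*, and that in WT was -0.2054 to 0.0107 for *S100a13*. The basal genotype difference was -0.0352 to 0.1197 for *S100a8* and -0.0286 to 0.0443 for *S100a16*. With cytokines it was -0.0675 to 0.0229 for *S100a11* and -0.0589 to 0.016 for *S100a14*, and the interaction of *S100a6* was -0.1123 to 0.0219. The cause was not tested.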
